A study of Mus musculus with 8 samples.

Results

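The insulin-like growth factor (IGF) axis was examined in the inguinal white fat pad, a subcutaneous depot of the groin. The 9 genes described are the ligand Igf1, the receptors Igf1r and Igf2r, and the binding proteins Igfbp2, Igfbp3, Igfbp4, Igfbp5, Igfbp6 and Igfbp7. They were chosen by gene symbol from the 18193 genes of the array, and 26 of its 45101 probe sets carry the name of exactly 1 of them. The tissue came from male C57BL/6 littermates of 12 weeks on standard chow. There were 4 mice without the lysophosphatidic acid receptor gene Lpar4 (Lpar4 -/Y, KO) and 4 wild-type mice (WT), with 1 array per mouse. The labels do not limit the deletion to a cell type, and no other allele or treatment is named for either group.

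IGF1 is a peptide growth factor made by the liver and, locally, by many tissues including fat, where growth hormone drives part of its production. It signals through the tyrosine kinase receptor IGF1R, which uses insulin receptor substrates, PI3 kinase, AKT and the RAS pathway and promotes preadipocyte growth and differentiation. IGF2R takes up IGF2 and carries it to lysosomes without kinase signalling. The IGF-binding proteins hold IGFs outside the cell and so prolong their life or restrain their access to IGF1R, and several also act without IGF. IGFBP7 is a related protein that binds IGFs weakly.

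Values are the log2 signals deposited by the authors, and every difference is KO minus WT. Where a gene had several probe sets, the one of highest mean over the 8 arrays stood for it. A gene is called changed where limma gave an adjusted p under 0.05 over all 18193 genes. Most deposited values hardly moved between arrays. A gene or probe set is therefore called near constant where its SD over the 8 arrays was under 0.01, and varying otherwise. Of the 9 members 7 varied, and Igf2r and Igfbp2 were near constant.

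Of the 9 members 1 was called, Igf1r, which fell slightly in KO. Over all genes 4.03% were called in either direction and 1.64% were called lower, so 1 call among 9 genes says nothing particular about the family. The largest difference belonged to Igfbp3, at 2.39-fold lower signal in KO with no overlap between the genotypes, but it missed the threshold over all genes. The other 5 varying members were higher in KO on average by 0.03 to 0.31, and in each of them the genotypes overlapped. The median difference was 0.12 over the 7 varying members and 0.01 over all 5173 varying genes. In 2 of the 7 varying members the genotypes did not overlap, against 33.2% of all varying genes. Among varying genes alone 27.1% were called, and 19.5% with the replicate number as a block; in both fits the called members were Igf1r and Igfbp3.

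The sequences before the start sites of these 2 genes are shown because they are the members whose genotypes did not overlap. Both are the 250 bases upstream of the start in RefSeq's GRCm38.p6 table, 5′ to 3′ on the strand of the gene. All 9 members matched this table. The Igfbp3 stretch is chr11:7213924-7214173 on the minus strand, and the capitals mark TATATA. The Igf1r stretch is chr7:67952007-67952256 on the plus strand, and the capitals mark GGGCGG.
Igfbp3: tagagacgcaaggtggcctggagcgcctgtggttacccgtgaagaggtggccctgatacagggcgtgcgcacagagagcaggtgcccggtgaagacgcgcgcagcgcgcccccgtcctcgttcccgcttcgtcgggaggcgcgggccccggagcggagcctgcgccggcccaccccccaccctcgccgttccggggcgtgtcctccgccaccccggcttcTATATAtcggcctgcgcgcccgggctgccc
Igf1r: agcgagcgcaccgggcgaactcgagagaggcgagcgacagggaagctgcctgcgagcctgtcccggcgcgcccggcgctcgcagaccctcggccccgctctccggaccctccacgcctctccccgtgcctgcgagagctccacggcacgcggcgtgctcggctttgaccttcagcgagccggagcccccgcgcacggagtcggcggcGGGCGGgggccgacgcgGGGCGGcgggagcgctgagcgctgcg

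Both stretches were rich in G and C, at 73.2% for Igfbp3 and 77.6% for Igf1r, against a median of 52.4% over the 32851 promoters of the table. The letters TATATA, one form of a TATA box, began 30 bases before the Igfbp3 start and occurred in 5.25% of all promoters. Igf1r held neither TATATA nor TATAAA (12.4% of promoters) in this window, and held GGGCGG, the GC box, at 43 and 26 bases before its start (32.7%). GGAATG, the core letters bound by TEAD factors, was in neither window (12.6%). Among the other members GGAATG was found in Igfbp5, TATAAA in Igfbp4 and Igfbp6, and GGGCGG in Igfbp2, Igfbp7 and Igf2r. All 4 motifs were searched on both strands, and none overlapped another in these 2 windows. A match is a description of letters only.

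Igfbp3, the main carrier of IGF1 in blood, had all 4 KO arrays below the lowest WT array. Its signal was 8.01, 8.99, 8.36 and 8.96 in KO arrays 1 to 4 and 9.83, 10.31, 9.37 and 9.85 in WT arrays 1 to 4. KO arrays 1 and 3 were the lowest, and the nearest arrays of the genotypes were KO 2 and WT 3. The means were 8.58 ± 0.48 in KO and 9.84 ± 0.38 in WT (SD, n = 4 each), a difference of -1.26 ± 0.30 (SE, 95% interval -1.98 to -0.54). This was the 7th lowest difference of all 18193 genes, yet the limma adjusted p over all genes was 0.0713. Among varying genes the limma adjusted p was 0.0161 without and 0.0242 with the replicate block.

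The lower level was seen within both sets of replicate numbers and in both Igfbp3 probe sets. Replicate numbers 1 and 2 gave a difference of -1.57, and numbers 3 and 4 gave -0.95. The 2 Igfbp3 probe sets, 1423062_at and 1458268_s_at, differed by -1.26 and -1.21, with limma adjusted p of 0.0861 and 0.0871 over all probe sets. The suffix of the latter marks probes shared with other transcripts. Each probe set gave an exact permutation p of 0.0286, two-sided, which is the smallest that 4 against 4 arrays can give. Leaving out any single array kept the Igfbp3 difference between -1.42 and -1.07. Igfbp1, the protein-coding neighbour of Igfbp3 and mainly a liver product, was near constant at 6.08 in both genotypes.

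**Figure D1:**
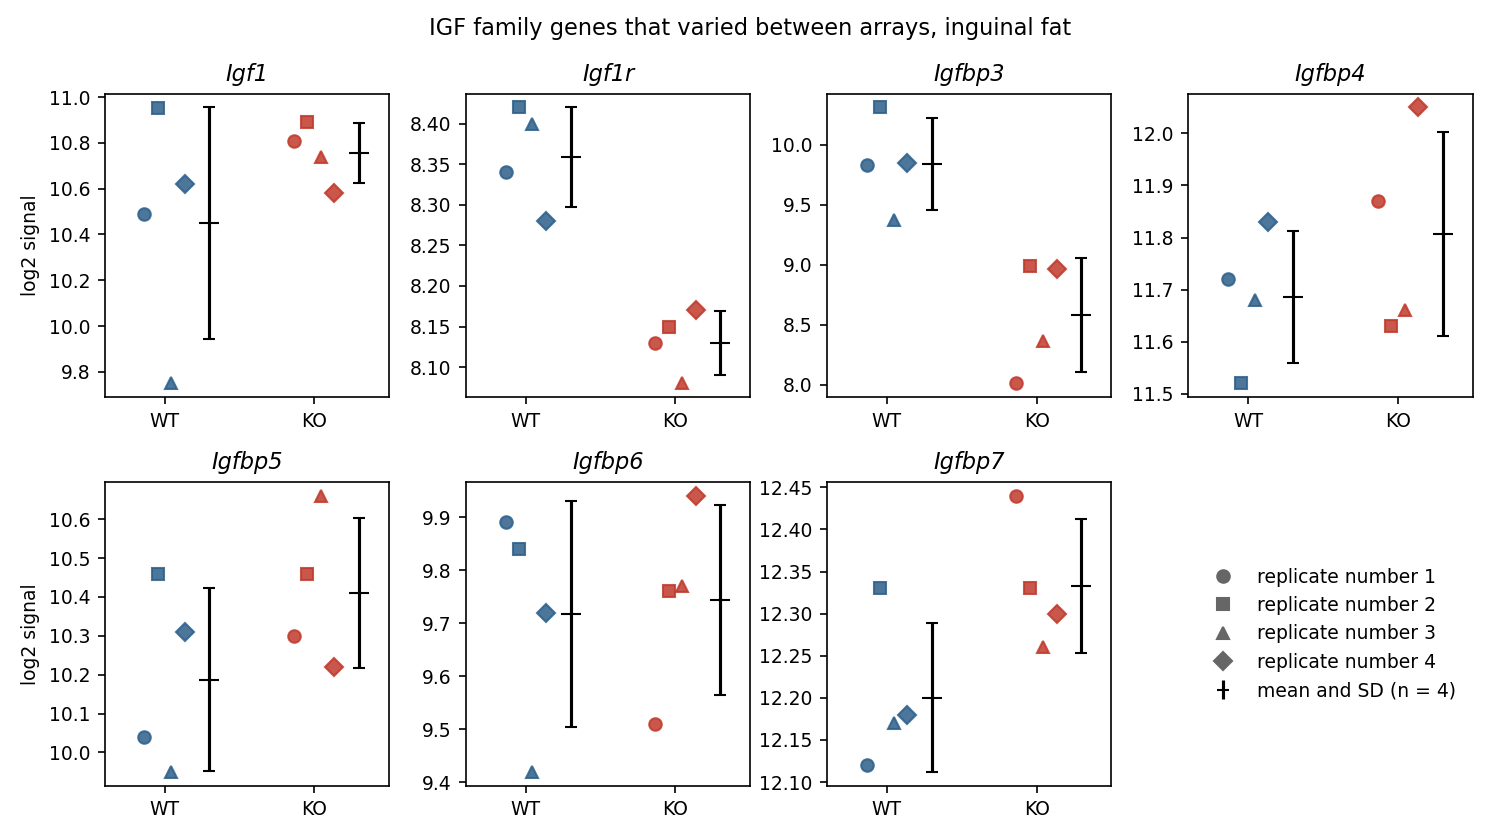
Log2 signal of the 7 varying IGF family genes in each of the 8 arrays, with WT in blue, KO in red, the marker shape giving the replicate number and black bars giving the mean and SD of 4 arrays; each panel has its own scale. Igfbp3 lay between 8.01 and 8.99 in KO and between 9.37 and 10.31 in WT, and Igf1r also separated the genotypes, whereas the other 5 genes overlapped.

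Igf1r, the kinase receptor for IGF1, was the only member called over all genes. Its signal was 8.13, 8.15, 8.08 and 8.17 in KO arrays 1 to 4 and 8.34, 8.42, 8.40 and 8.28 in WT arrays 1 to 4. The 4 KO arrays lay close together and all lay below the lowest WT array, WT 4. The means were 8.13 ± 0.04 and 8.36 ± 0.06 (SD, n = 4 each). The difference of -0.23 ± 0.04 (SE, 95% interval -0.31 to -0.14) had a limma adjusted p of 0.0322 and corresponds to a signal 1.17-fold lower in KO. The difference was negative in all 4 number pairs, from -0.32 to -0.11. With the replicate number as a block the limma adjusted p over all genes was 0.147, and 0 genes of the array passed there, although 3703 had an unadjusted p under 0.05. Among varying genes Igf1r passed without (0.0156) and with the block (0.0468).

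The 5 probe sets of Igf1r did not all respond alike. Probe set 1428967_at was 8.17, 8.33, 8.15 and 7.99 in KO arrays 1 to 4 and 8.33, 8.34, 8.37 and 8.17 in WT arrays 1 to 4, so the genotypes overlapped. Its difference was -0.14 (95% interval -0.33 to 0.05, limma adjusted p over all probe sets 0.391), and that of the called probe set 1452982_at was -0.23 (0.0408 on the same scale). Over all probe sets 1.91% were called. With the block among varying probe sets 1452982_at missed the threshold (0.0531). The other 3 probe sets of Igf1r were near constant. Averaging all 5 gave -0.07 and a limma adjusted p of 0.0910 over all genes. Leaving out KO array 1, 2, 3 or 4 or WT array 1, 2 or 3 ended the call of Igf1r (adjusted p from 0.0606 to 0.0908), with differences from -0.24 to -0.21; without WT 4 it was kept.

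Igf2r, the clearance receptor for IGF2, gave no usable contrast in these values. Both of its probe sets were near constant, at 9.28 and 8.70 in both genotypes, and the differences were 5.5e-05 and -0.00012. Igfbp2, a binding protein made by preadipocytes, had a single probe set, near constant at 6.42 in all 8 arrays. Its mean ranked at percentile 33.9 among all probe sets, and signal over background was not analysed here. For these 2 genes the absence of a call says only that the deposited values did not move.

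Igf1 spread more widely among the WT mice than the genotype means lay apart. Its signal was 10.81, 10.89, 10.74 and 10.58 in KO arrays 1 to 4 and 10.49, 10.95, 9.75 and 10.62 in WT arrays 1 to 4. The KO arrays lay within 0.31 of each other, whereas WT 3 was far below the other WT arrays and WT 2 was the highest of all 8. The means were 10.75 ± 0.13 and 10.45 ± 0.51 (SD, n = 4 each), a difference of 0.31 ± 0.25 (SE, 95% interval -0.31 to 0.92, limma adjusted p = 0.535). The difference was 0.07 without WT 3 and 0.47 without WT 2.

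All 4 Igf1 probe sets varied, and each was higher in KO on average. Their differences were 0.31, 0.37, 0.39 and 0.39, with limma adjusted p from 0.247 to 0.559 over all probe sets. The 2 probe sets 1452014_a_at and 1419519_at had exact permutation p of 0.0571, and in both of them WT 2 alone reached the KO range. WT 3 was the lowest array in each of the 4, at 9.75, 9.12, 9.49 and 8.34.

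**Figure D2:**
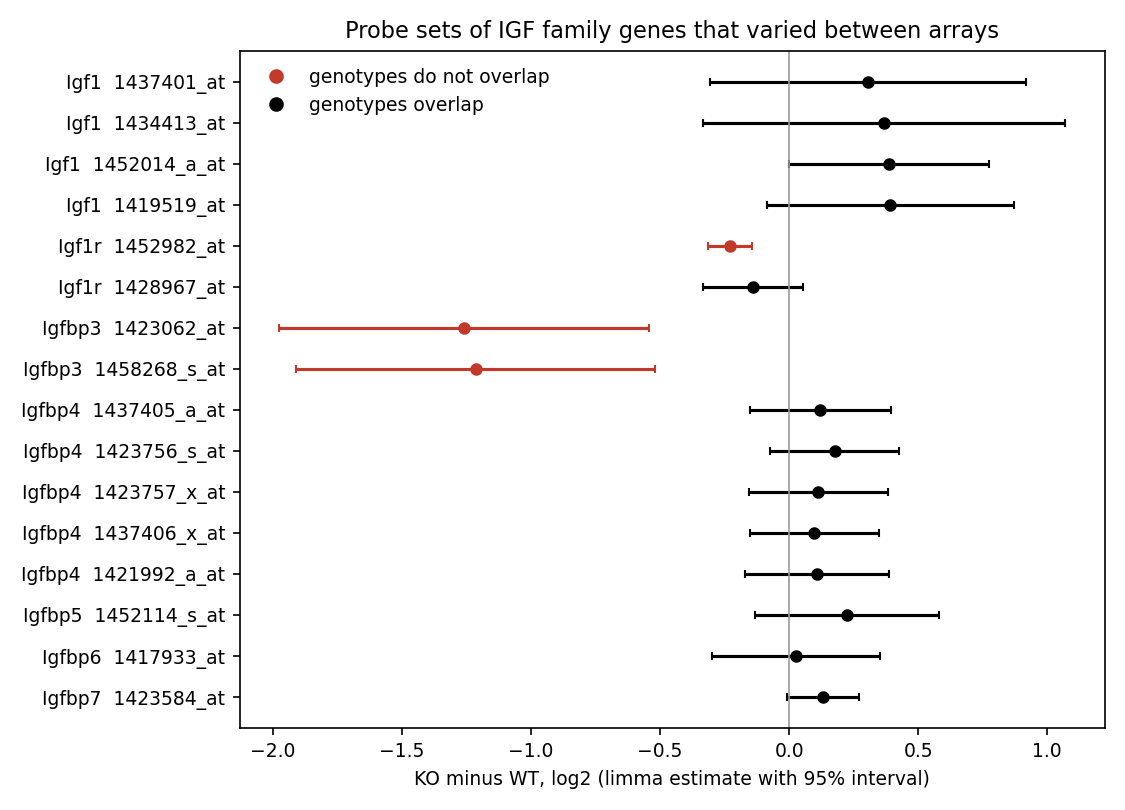
KO minus WT difference on the log2 scale, with limma's 95% interval, for the 16 varying probe sets of the IGF family genes; red marks probe sets whose genotypes did not overlap. Both Igfbp3 probe sets lie near -1.2, 1 of 2 varying Igf1r probe sets separates the genotypes, and the intervals of all Igf1, Igfbp4, Igfbp5, Igfbp6 and Igfbp7 probe sets span 0.

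Igfbp4, a secreted inhibitor of IGF action in adipose tissue, overlapped between the genotypes in every probe set. Its brightest probe set was 11.87, 11.63, 11.66 and 12.05 in KO arrays 1 to 4 and 11.72, 11.52, 11.68 and 11.83 in WT arrays 1 to 4. KO 4 was the highest array and WT 2 the lowest. The difference was 0.12 (95% interval -0.15 to 0.39, limma adjusted p = 0.586), and it was 0.039 without KO 4 and 0.066 without WT 2. Of its 6 probe sets 5 varied, with differences from 0.10 to 0.18. All 5 carry the suffix a, s or x, which marks probes that match several transcripts.

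Igfbp5, a binding protein that also attaches to matrix, was 10.30, 10.46, 10.66 and 10.22 in KO arrays 1 to 4 and 10.04, 10.46, 9.95 and 10.31 in WT arrays 1 to 4. The genotypes overlapped, with WT 3 lowest and KO 3 highest. The difference was 0.22 (95% interval -0.14 to 0.58, limma adjusted p = 0.433), and it was 0.14 without WT 3, 0.14 without KO 3 and 0.11 with all probe sets averaged. Igfbp2 and Igfbp5 are neighbours in the RefSeq gene table, but with Igfbp2 near constant their values could not be compared.

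Igfbp6, which prefers IGF2 over IGF1, was 9.51, 9.76, 9.77 and 9.94 in KO arrays 1 to 4 and 9.89, 9.84, 9.42 and 9.72 in WT arrays 1 to 4. No genotype was consistently higher. The difference was 0.03 (95% interval -0.30 to 0.35, limma adjusted p = 0.932), and its sign differed between numbers 1 and 2 (-0.23) and numbers 3 and 4 (0.29). Without WT 3 it was -0.07.

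Igfbp7, a matrix protein abundant in vessel walls, was 12.44, 12.33, 12.26 and 12.30 in KO arrays 1 to 4 and 12.12, 12.33, 12.17 and 12.18 in WT arrays 1 to 4. WT 2 alone reached into the KO range. The difference was 0.13 ± 0.06 (SE, 95% interval -0.01 to 0.27, limma adjusted p = 0.240). The other 2 probe sets of Igfbp7 were near constant, and averaging all 3 gave 0.04. Igfbp3 and Igfbp7 thus had differences of opposite sign, -1.26 and 0.13, and only that of Igfbp3 separated the genotypes.

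Among ligands and receptors related to the members, 0 of 6 genes were called over all genes by limma, against 4.03% of all genes. The 3 varying ones had an unadjusted p under 0.05, as did 4172 of all 18193 genes. In the fit among varying genes alone 2254 of 5173 did. Igf2, the fetal IGF ligand, was 7.49, 7.53, 7.58 and 7.72 in KO and 7.90, 8.14, 8.30 and 7.94 in WT. The genotypes did not overlap, as in 33.2% of all varying genes. The difference of -0.49 had a limma adjusted p of 0.0559 over all genes and 0.0140 among varying genes. Igfals, the acid-labile subunit that joins IGF and IGFBP3 in the large serum complex, differed by 0.50 (0.145 over all genes, 0.0443 among varying genes and 0.0769 there with the replicate block). The insulin receptor Insr differed by -0.19 with no overlap (0.128 over all genes, 0.0587 among varying genes and 0.0461 there with the replicate block). The other 3 genes, Igfbp1, Insrr and Igfbpl1, were near constant, as were both measured IGF mRNA-binding proteins, of which 0 of 2 were called.

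Of 12 genes for proteases that cut IGF-binding proteins and for stanniocalcins, 1 rose and 1 fell in KO. Over all genes 2.39% were called higher and 1.64% lower. Stc2, stanniocalcin 2, which inhibits the pappalysin proteases, fell by 0.64 on the log2 scale. Its signal was 6.88, 6.97, 6.90 and 7.11 in KO and 7.70, 7.39, 7.57 and 7.75 in WT (limma adjusted p = 0.0290). Adam12, a metalloprotease able to cleave IGFBP3 and IGFBP5, rose by 0.53, from 7.30, 7.61, 7.74 and 7.58 in WT to 7.99, 8.12, 8.08 and 8.16 in KO (limma adjusted p = 0.0422). The genotypes did not overlap in either gene. Over all genes with the replicate block 0 genes were called, so both calls were lost there (limma adjusted p = 0.106 and 0.109). Among varying genes with the block both were kept (0.0227 and 0.0242). With all probe sets of a gene averaged the differences were -0.29 for Stc2 and 0.27 for Adam12, both still called. Pappa, the pappalysin that cleaves IGFBP4, was near constant at 6.39. The median difference was -0.08 over the 10 varying genes of this list, against 0.01 over all varying genes.

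Of 9 secreted proteins that share the IGF-binding domain or were named with this family, 1 fell, the matricellular protein Ccn5 (-1.85, limma adjusted p = 0.0134). The share called lower over all genes was 1.64%. Ccn5 was between 7.36 and 7.91 in KO and between 9.20 and 9.83 in WT. Its call over all genes was lost with the replicate block (limma adjusted p = 0.0751), where 0 genes were called. Among varying genes with the block it was kept (0.0148). Crim1, a transmembrane protein with an IGF-binding domain, differed by -0.38 with no overlap. Its limma adjusted p was 0.0972 over all genes, 0.0282 among varying genes and 0.0741 there with the replicate block. Ccn1 and Ccn2 differed by 0.04 and -0.32 and overlapped.

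In the growth hormone axis 0 of 10 genes were called by limma, with 2 at an unadjusted p under 0.05, both near constant. The growth hormone receptor Ghr differed by 0.14 (limma adjusted p = 0.418), and Socs2, a feedback target of this axis, by -0.01. Among 30 measured genes of IGF1R signalling, Sos1 rose and 0 fell, against 2.39% and 1.64% of all genes. Sos1, the exchange factor that activates RAS, was 9.06, 8.90, 9.03 and 9.03 in KO and 8.64, 8.61, 8.69 and 8.69 in WT. The difference was 0.35 (limma adjusted p = 0.0177). With the replicate block the limma adjusted p was 0.0729 over all genes, where 0 genes were called, and 0.0242 among varying genes. With all probe sets of Sos1 averaged the difference was 0.070 (limma adjusted p = 0.0171). Grb14, an adaptor that inhibits the insulin receptor, differed by -0.52 with no overlap (0.0703 over all genes, 0.0177 among varying genes). Irs1 and Akt2 differed by 0.23 and -0.07 and overlapped. The median difference was -0.07 over the 19 varying genes of this list, against 0.01 over all varying genes.

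**Figure D3:**
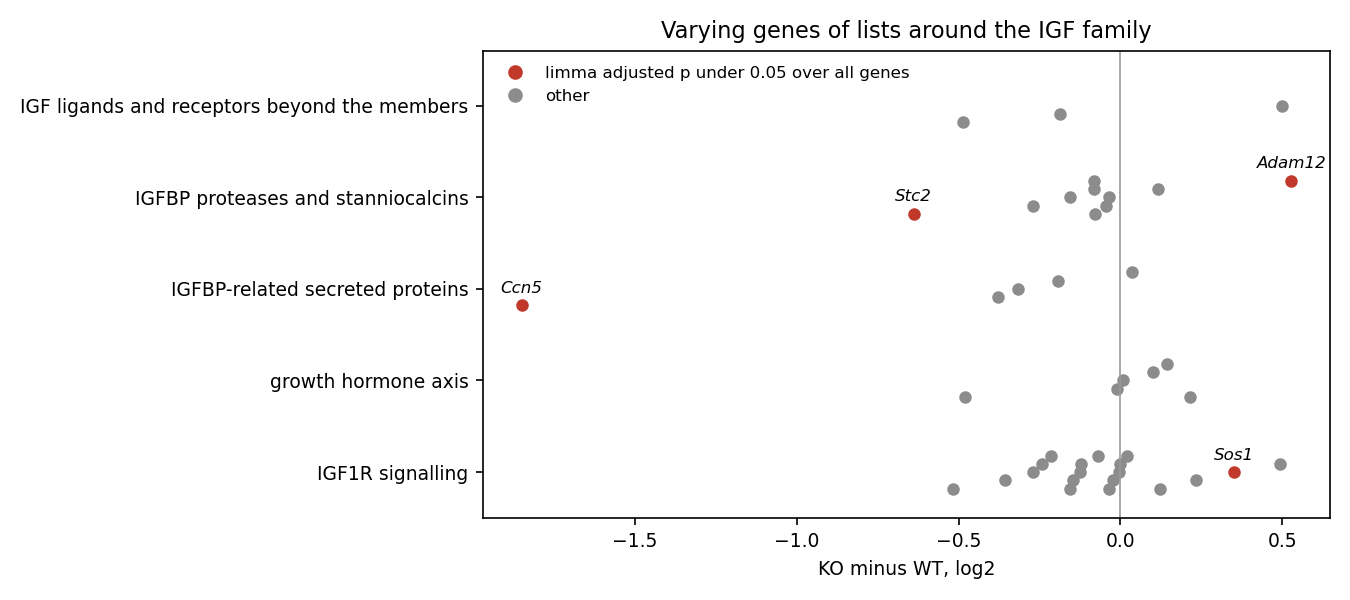
KO minus WT difference on the log2 scale for the varying genes of 5 lists around the IGF family, with red for genes called by limma over all genes; the height of a point within its row only separates points. Ccn5 and Stc2 are called lower, Adam12 and Sos1 higher, and no varying gene of the growth hormone axis is called.

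The genes most like a member were sought among 4236 genes other than the members with an SD of at least 0.1, by the root mean square difference of mean-centred log2 signals over the 8 arrays. The closest to Igfbp3 were Sfrp5, a secreted Wnt antagonist (0.28), Lox, the collagen cross-linking lysyl oxidase (0.28), and the AMP deaminase Ampd3 (0.35). Sfrp5 was 7.53, 7.85, 7.48 and 7.71 in KO and 8.56, 9.06, 8.67 and 8.62 in WT, and the differences of the 3 genes were -1.08, -1.05 and -0.99. These genes share the arrays and the genotype contrast with Igfbp3, so their likeness describes these 8 arrays only. Closest to Igf1r were Dmtf1 (0.03), a cyclin D-binding transcription factor, the small nucleolar RNA host gene Snhg8 (0.03) and Smad4 (0.04), the common mediator of TGF-beta signalling.

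The genes closest to Igf1, picked for that likeness, were all lowest in array WT 3. They were Cd248, a surface protein of stromal cells (0.13), the fibrillar collagen Col3a1 (0.14) and the metalloreductase Steap4 (0.17). In WT 3 Cd248 was 7.49, against 8.19 to 8.44 in the other WT arrays, and Col3a1 was 11.67, against 12.17 to 12.42. Steap4 was 10.25 in WT 3, but WT 1 (10.92) and WT 4 (10.65) also lay below its lowest KO array (11.04).

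**Figure D4:**
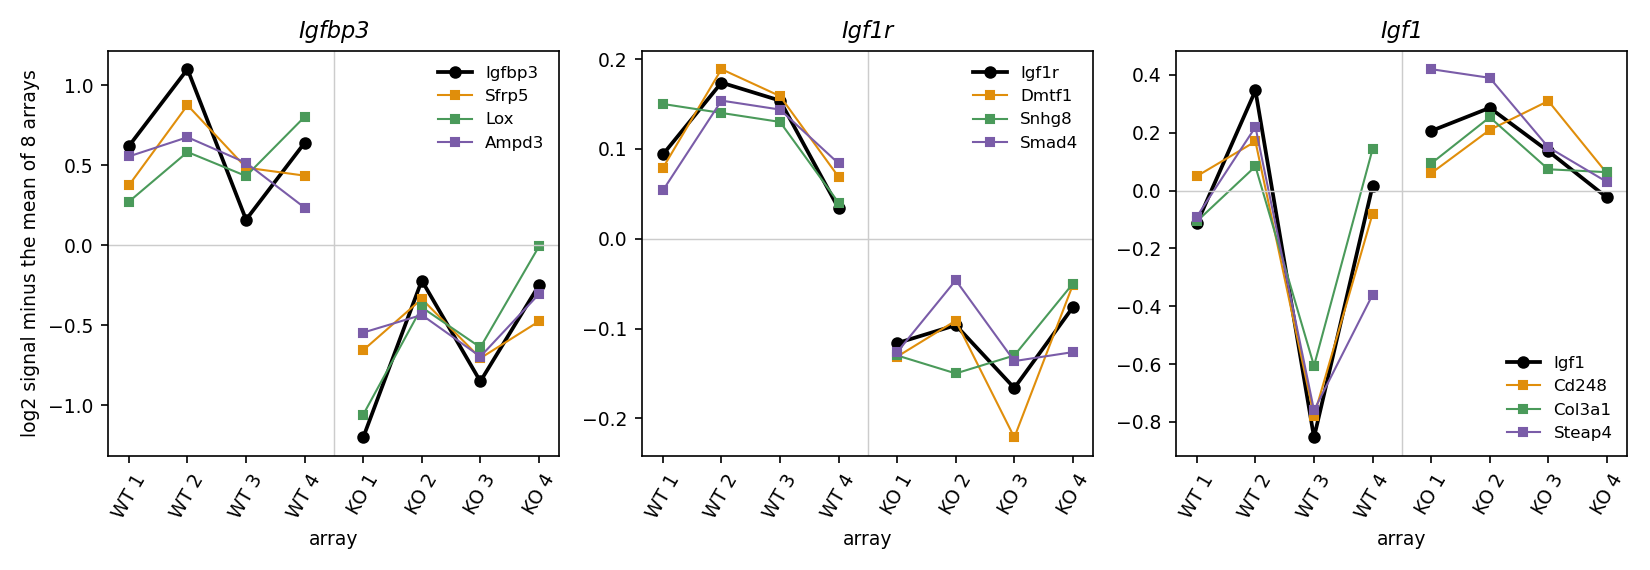
Log2 signal minus the mean of the 8 arrays for Igfbp3, Igf1r and Igf1 (black) and the 3 genes closest to each (colours), by array; lines join arrays of a genotype only to guide the eye. Igfbp3, Igf1r and their closest genes separate WT from KO. Igf1 and its closest genes, picked for that likeness, are all lowest in WT 3. In Steap4 the arrays WT 1 and WT 4 also lie below all KO arrays.

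Markers of other cell types were read beside these values. Fewer cells of a type and less RNA per cell cannot be told apart in whole tissue. The mean signal of 9 progenitor and fibroblast markers was 9.35 in WT 3 and from 9.90 to 10.11 in the other 7 arrays, and that of 10 macrophage markers was 8.63 in WT 3, higher in the other WT arrays (up to 9.77 in WT 1) and 9.39 to 9.56 in KO. Igf1, Igfbp3, Igfbp5 and Igfbp6 were lowest among WT in that array too. The part of either cell type in the Igf1 values was not tested.

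In each of the pericyte, endothelial and nerve lists 1 marker was called over all genes, with lower signal in KO. Of all genes 1.64% were called lower. Among varying genes alone, 2 of 9 varying pericyte, 4 of 9 endothelial and 3 of 4 nerve markers were called, all lower. In that fit 633 of all 5173 varying genes were called lower, and 27.1% were called in either direction. The mean of 10 pericyte and smooth muscle markers was 8.73 to 8.97 in KO and 9.08 to 9.21 in WT, with 1 of 10 called, Acta2 (-1.26, limma adjusted p = 0.0134). The Acta2 probe set carries the suffix s, and the difference was -0.53 in its brightest probe set without such a suffix and -0.60 with all its probe sets averaged. The mean of 10 endothelial markers was 8.81 to 9.04 in KO and 8.98 to 9.23 in WT, so that the genotypes overlapped, with 1 of 10 called, Esam (-0.33, 0.0381). Of 7 Schwann cell and nerve markers 1 was called, Cnp (-0.57, 0.0294, and -0.25 with all its probe sets averaged), and their mean was 7.84 to 8.15 in KO and 8.24 to 8.59 in WT. The calls of Acta2, Esam and Cnp were lost over all genes with the replicate block (0.0975, 0.155 and 0.112), as were all others there. Of the 10 pericyte and smooth muscle markers, Rgs5 (0.12), Notch3 (0.04) and Cspg4 (0.01) were not lower in KO, and Cnn1 was near constant. The part of these cells in the Igfbp3 difference was not tested.

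The remaining markers bear on the tissue itself. Adipocyte markers had a mean of 12.05 to 12.18 in KO and 12.02 to 12.06 in WT, and 2 of 8 were called higher, Retn (0.26) and Adipoq (0.25). The share called higher over all genes was 2.39%. The Adipoq difference was 0.14 after quantile normalisation (limma adjusted p = 0.244), and its call was lost among varying genes with the replicate block (0.0534). Of the other adipocyte markers, Slc2a4 (0.45) and Cidec (0.15) were higher on average, Lep (-0.38), Pparg (-0.08) and Lipe (-0.05) were lower, none of them called over all genes, and Fabp4 was near constant. Among varying genes the limma adjusted p of Lep was 0.0949 without and 0.0331 with the replicate block. That of Slc2a4 was 0.0181 and 0.0408. Of 9 progenitor and fibroblast markers 1 was called higher, Clec3b (0.71). Skeletal muscle markers had means of 9.13 to 9.80 in numbers 1 and 2 and 6.44 to 7.34 in numbers 3 and 4 of both genotypes. Epithelial markers were near constant with a mean of 6.42, 0 of 10 macrophage, 0 of 8 lymphocyte and 0 of 3 erythrocyte markers were called, and the means ran from 6.52 to 6.82 for lymphocytes and from 6.62 to 6.87 for erythrocytes. The 18S ribosomal RNA controls (3 probe sets) were higher in KO by 0.22 to 0.44 on average. Of the 3 Lpar4 probe sets 1 was lower (-1.12) and 2 higher (0.53 and 0.71) in KO, and their place relative to the deletion is not known here.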

How the data were processed

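Total RNA (100 ng per mouse) was biotin-labelled for 3′ expression arrays, per the labels. The authors deposited log2 values. The submitters' processing notes list R 2.14.0; how background, normalisation and summarisation were handled is not given in the sources used here. Array medians were 6.73 to 6.74. Platform annotation named a single gene for 34945 probe sets. A further probe set named with both Airn and Igf2r was left out.

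KO and WT were compared with limma 3.58.1 under R 4.3.3 (two-sided moderated test from lmFit and eBayes), adjusted over all genes by Benjamini-Hochberg; the code was tested on simulated data. Members, lists and tests were chosen with earlier results of these data known. The text names all members, up to 4 called genes per list, the 3 genes closest to Igf1 and to the 2 members of smallest p; other genes were named after their values were seen. Of 172 listed genes 152 were analysed here.

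The labels number mice 1 to 4 in both genotypes. Across genes, same-numbered KO and WT arrays deviated together from their group means, with correlations of 0.315, 0.486, 0.189 and 0.244, each above the 0.1 required. Some arrays of unlike number did so too (KO 3 with WT 4 at 0.364, KO 4 with WT 3 at 0.266, KO 2 with WT 1 at 0.220, KO 1 with WT 2 at 0.107), so the data set numbers 1 and 2 apart from 3 and 4 as well. Within numbers 3 and 4 each KO array correlated more with the WT array of the other number (0.364 against 0.189 and 0.266 against 0.244). The data therefore do not single out pairs by number there. The numbers were treated as pairs only in the fits with the replicate block. These fits are given for Igf1r, Igfbp3 and selected other genes. The main fit has no block. A block of 2 levels (numbers 1 and 2, numbers 3 and 4) gave 493 called genes over all genes. Igf1r kept its call there (limma adjusted p = 0.0498), as did Stc2, Sos1, Ccn5, Acta2 and Cnp. Adam12 (0.0524), Retn (0.0583), Adipoq (0.0712), Esam (0.0626) and Clec3b (0.0675) lost theirs. The limma p-values set the genotype difference against the spread between mice of a genotype, estimated over both groups. In the fits with a block, the spread left after the block is used. The 4 mice per group limit the precision.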

Additional observations from a re-analysis of the deposited data

Results flagged for a closer look

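In 108 groups of 4 arrays, covering the varying members, their varying probe sets and the other varying genes named in the report except Lpar4, 4 arrays lay far from the other 3 of their group; chance gives about 1 in 20. Akt2, a kinase downstream of IGF1R, was low in KO 2 at 9.98, against 10.12 to 10.15 in the other KO arrays. Snhg8 was low in WT 4 at 9.96, against 10.05 to 10.07 in the other WT arrays. Smad4 was high in KO 2 at 10.5, against 10.41 to 10.42 in the other KO arrays. The glucose transporter gene Slc2a4 was low in WT 1 at 9.29, against 9.33 in each of the other WT arrays, so that all 4 lay close together. Snhg8 and Smad4 are among the genes closest to Igf1r. The low Igf1 value of WT 3 (9.75) did not reach that limit.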

How the results depend on the processing

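The number of called genes depended on the fit more than the sizes of the differences did. Over all genes 733 were called; with the replicate block 0 were (3703 at an unadjusted p under 0.05), among varying genes only 1402, and by the per-gene Welch test 9; leaving out 1 array gave 10 to 253. Called members numbered 1; they were 0 with the replicate block (limma, 2 at an unadjusted p under 0.05), 0 with all probe sets averaged, 0 by the Welch test, 2 among varying genes without and with the block, and 0 to 1 with 1 array left out. Of the member probe sets 1 was called, against 0 with the replicate block, 0 with a block of 2 levels (numbers 1 and 2, numbers 3 and 4), 3 among varying probe sets, 2 there with the block, and 0 with any array left out. Of the listed pathway genes 4 were called, against 0 with the block, 0 by the Welch test, 8 among varying genes without and with the block, and 0 to 3 with 1 array left out. The cause was not tested, beyond fewer genes or arrays entering some fits. Igf1r and Igfbp3 kept their sign in all 18 alternatives, Igf1r from -0.25 to -0.07 and Igfbp3 from -1.42 to -1.07. Igfbp3 passed in 2 of them, both limited to varying genes; Igf1r lost its call in 10. Igfbp6 turned sign without KO 4 (-0.04) and without WT 3, and ranged from -0.073 to 0.11 with 1 array left out. Igf2r and Igfbp2 stayed within 0.001 of 0 wherever tested. The number of arrays and unknown signal over background limit what dim genes such as Igfbp2 can show.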

Other observations

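Some near-constant probe sets separated the genotypes at a scale far below the varying ones. Probe set 1426565_at of Igf1r differed by -0.00030 and 1422313_a_at of Igfbp5 by 0.00039, each with no overlap between KO and WT and with limma adjusted p of 0.0948 and 0.112 over all probe sets. For Igfbp5 this has the sign of its varying probe set 1452114_s_at (0.22), and for Igf1r that of its called probe set 1452982_at (-0.23). They were picked for their lack of overlap from 10 near-constant member probe sets. In Igfbp7 the near-constant 1437804_at (8.8e-05) had the sign of the varying probe set (0.13), and 1423585_at (-8.8e-05) had the opposite sign. Over all 18193 genes, near-constant ones included, the genotypes did not overlap in 16.2%, and over varying genes alone in 33.2%.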
